A study of Mus musculus with 12 samples.

Results

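The 10 genes described here encode the rings that hold and fold chromosomes: the cohesin subunits Smc1a, Smc3 and Rad21, the cohesin acetyltransferases Esco1 and Esco2, and the condensin subunits Smc2, Smc4, Ncapd2, Ncapg and Ncaph. They were taken by gene name from the knockdown tables, and all 10 had 1 row each among the 14264 genes. The cells were mouse bone marrow-derived macrophages, isolated ex vivo, in 4 groups of 3 libraries. Controls were labelled WT and carried a control short hairpin (shCTRL), and the other cells carried a hairpin against MOF (shMOF), the lysine acetyltransferase that Kat8 encodes. Each hairpin was studied without stimulation and after 3 h of lipopolysaccharide (LPS), the bacterial product that activates macrophages, at 100 ng/ml. The strain, the age, the way the hairpins were delivered and whether replicates came from separate animals were not stated in the sources used here, and the labels name 1 hairpin against MOF. P-values therefore measure the spread between these libraries only, which may be technical, and loss of MOF cannot be told apart from other effects of that hairpin.

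Cohesin is a ring of SMC1, SMC3 and the kleisin RAD21 that extrudes DNA loops in interphase and holds sister chromatids together from S phase to anaphase. ESCO1 and ESCO2 acetylate SMC3, which protects the ring from release by WAPL. ESCO2 acts during DNA replication, while ESCO1 is present throughout the cell cycle. Condensin is built on the pair SMC2 and SMC4 and compacts chromosomes for mitosis. Condensin I adds the kleisin NCAPH with NCAPD2 and NCAPG, and condensin II adds NCAPH2, NCAPD3 and NCAPG2. Cohesin works in dividing and resting cells, whereas condensin I genes and Esco2 are best known from dividing cells.

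Values per library are not in the tables used here, so each gene is given by the log2 fold change of shMOF over shCTRL with its standard error (SE), by an adjusted p, and by a mean normalized count per gene whose set of libraries is not stated. Depth per library is unknown, and the SE is the only measure of precision. Kat8 itself stood at 21.0% of the control level unstimulated and at 20.1% at LPS 3 h, for which the authors' deposited table gives log2 fold changes of -2.25 (adjusted p = 2.08e-101, SE 0.10) and -2.31 (adjusted p = 4.86e-67, SE 0.13). All 10 macrophage markers of the list used were measured, led by Lyz2, Adgre1 and Cd68, with mean normalized counts of 259735, 80254 and 64664. Unstimulated, 9 of them rose and 0 fell, where 21.3% of all genes tested were called higher. At LPS 3 h 7 rose and 1 fell, where 28.1% of all genes were higher. Of 7 lymphocyte markers 0 were measured, and of 7 neutrophil markers 2 were, both without a call. Fibroblast and stromal markers, 6 of 7 measured with a summed mean normalized count of 1383, rose in 3 cases unstimulated and 4 at LPS 3 h, and 0 fell. The 2 with the highest counts stood in the authors' deposited table at 0.35 (SE 0.12) and 0.36 (SE 0.11) for Col1a2 and at 0.42 (SE 0.13) and 0.52 (SE 0.12) for Col1a1. Of the dendritic cell markers 2 of 6 were measured, Itgax and Zbtb46, and both rose at LPS 3 h and had no call unstimulated. Of 4 osteoclast markers measured Ctsk fell unstimulated and Acp5 rose at LPS 3 h. The part of these cell types in the results below was not tested.

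Promoter sequences of 6 of the 10 genes were at hand from RefSeq (build GRCm38.p6, the assembly that mm10 names). Those of Ncapg, Ncapd2 and Smc2 are shown because these are the 3 that hold the letters of the cell cycle homology region. Those of Ncaph and Smc3 are shown as promoters without these letters. The Smc1a promoter, not shown, also lacks them and holds CCAAT at -19 to -15 from the RefSeq start. Each line gives the strand of the gene, 5′ to 3′, from 200 bases before the RefSeq start up to the start or to the first base that GENCODE M21 assigns to a gene, so that all of it is intergenic by that annotation. Capitals mark TTTGAA (the cell cycle homology region, CHR) or CCAAT, on either strand.
Ncapg: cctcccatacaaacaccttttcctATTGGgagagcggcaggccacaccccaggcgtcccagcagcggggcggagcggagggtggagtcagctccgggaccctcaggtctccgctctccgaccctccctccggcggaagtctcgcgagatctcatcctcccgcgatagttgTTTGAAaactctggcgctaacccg
Ncapd2: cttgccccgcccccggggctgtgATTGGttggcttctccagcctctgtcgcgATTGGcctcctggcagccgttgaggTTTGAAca
Smc2: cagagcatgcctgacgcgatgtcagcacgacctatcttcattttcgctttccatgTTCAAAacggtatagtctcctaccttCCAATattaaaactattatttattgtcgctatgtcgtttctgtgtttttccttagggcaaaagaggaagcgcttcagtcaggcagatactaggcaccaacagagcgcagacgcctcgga
Ncaph: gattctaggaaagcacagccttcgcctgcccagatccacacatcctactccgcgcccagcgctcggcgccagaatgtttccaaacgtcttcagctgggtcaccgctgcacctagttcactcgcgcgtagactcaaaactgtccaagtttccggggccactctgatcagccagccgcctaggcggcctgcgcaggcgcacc
Smc3: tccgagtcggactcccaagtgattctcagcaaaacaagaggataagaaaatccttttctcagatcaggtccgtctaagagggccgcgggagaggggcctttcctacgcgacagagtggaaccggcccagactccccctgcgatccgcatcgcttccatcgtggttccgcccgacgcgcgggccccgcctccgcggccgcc
The Ncapg line is chr5:45669725-45669918 on the plus strand and the Ncapd2 line chr6:125191702-125191786 on the minus strand. The Smc2 line is chr4:52439021-52439220 on the plus strand, the Ncaph line chr2:127133955-127134154 on the minus strand and the Smc3 line chr19:53600196-53600395 on the plus strand.

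Counted over the whole 300 bases that RefSeq promoters cover here, 250 before and 50 after the start, CHR letters were in 3 of the 6 promoters, against 17.9% of all 32851 promoters in the table. In Ncapg they lie at -30 to -25 from the start, in Ncapd2 at -123 to -118, and in Smc2 at -145 to -140 and again at 27 to 32. CCAAT was in 4 of 6, with 3 copies in Ncapd2, against 37.4% of all promoters. Letters of the E2F type (TTCCCGC, and also TTGGCGC, besides TTCGCGC and likewise TTGCCGC, on both strands) were in 4 of 6 against 9.57% of all. They lie past the start in Ncapg, Ncaph and Smc1a, and at -7 to -1 in Ncapd2, a stretch that GENCODE assigns to an Ncapd2 transcript. E2F-type TTGGCGC can share letters with CCAAT read on the other strand, but no such overlap occurred in the 6 promoters. Smc3 held none of the 3 motifs, and Smc1a held CCAAT and an E2F-type match. A match of letters is a description and not a bound site, and with 6 promoters these shares were not tested.

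**Figure D1:**
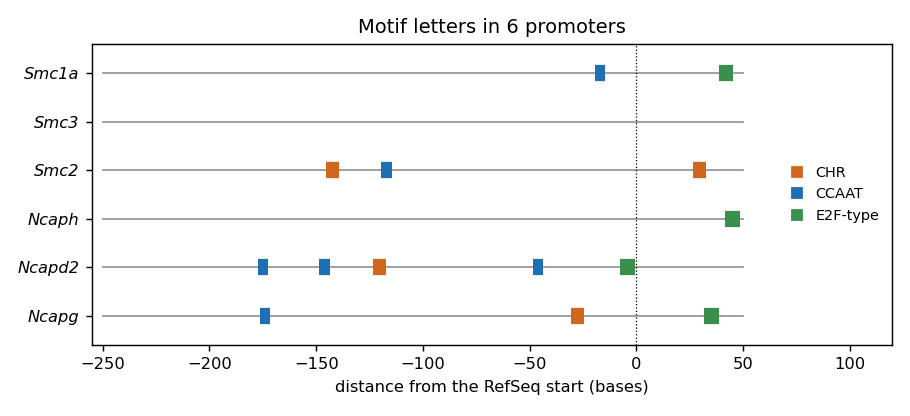
Motif letters in the promoters of 6 genes. The x axis is the distance in bases from the RefSeq start, grey lines are the 300 bases searched, and blocks are matches to CHR, CCAAT or E2F-type letters on either strand; CHR matches stand in Smc2, Ncapd2 and Ncapg only among these 6.

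MOF knockdown lowered 9 of the 10 genes in unstimulated macrophages, and by very unequal amounts. Esco2, Smc2 and the 3 condensin I subunits fell to between 20.7% and 43.6% of the control level, Smc4 to 68.6% and the cohesin ring genes to between 75.2% and 82.9%, while Esco1 had no call. Of all 14264 genes tested 39.1% were called in either direction, 17.8% lower and 21.3% higher. The median log2 fold change was -0.87 over the 10 genes and 0.03 over all genes. In bulk RNA, fewer cells of a type and less RNA per cell cannot be told apart. Proliferation genes moved with these genes: 22 of 22 fell and 0 rose, with a median of -2.05, and the 3 with the highest counts, Pcna, Mki67 and Top2a, stood in the authors' deposited table at -0.57 (SE 0.07), -2.21 (SE 0.07) and -2.18 (SE 0.10). Haematopoietic progenitor markers were scarce, 3 of 7 measured with a summed mean normalized count of 61.5, while Flt3, Mpo, Elane and Prtn3 were not among the 14264 genes. Kit and Cd34 fell, with -1.81 (SE 0.38) and -0.93 (SE 0.25) from the authors' deposited table, and Gata2 had no call at 2.58 (SE 1.38). At LPS 3 h Cd34 alone of the 3 was called, as lower, which a threshold of 0.01 ended (the authors' deposited table gives an adjusted p = 0.0156). The part of dividing or progenitor cells in the results below was not tested.

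Cohesin ring genes fell by small amounts, and Rad21 and Smc1a had the highest levels of the 10. Per kb of transcript, the mean normalized count was 698 for Rad21, 537 for Smc1a and 194 for Smc3. Rad21, the kleisin that closes the ring and is cut by separase, is on chromosome 15 (51962240 to 51991747, minus strand, ENSMUSG00000022314.9). Its log2 fold change in the authors' deposited table was -0.41 (adjusted p = 1.63e-17, SE 0.05) unstimulated and -0.13 (adjusted p = 0.00694, SE 0.04) with LPS. These are 75.2% (95% interval 70.6% to 80.1%) and 91.4% (86.1% to 96.9%) of the control level, so the interval stayed below the control in both states. The ATPase gene Smc3, whose product is the substrate of both ESCO enzymes, is on chromosome 19 (53600398 to 53645833, plus strand, ENSMUSG00000024974.10). In the authors' deposited table it stood at -0.37 (adjusted p = 1.41e-08, SE 0.06) and -0.17 (adjusted p = 0.0233, SE 0.07), or 77.4% and 88.9% of control. Its partner Smc1a, on chromosome X (152016428 to 152062694, plus strand, ENSMUSG00000041133.11), stood in the authors' deposited table at -0.27 (adjusted p = 2.16e-08, SE 0.05) and -0.14 (adjusted p = 0.00459, SE 0.04), or 82.9% and 90.9% of control. All 3 ring genes thus fell in both states, by under 0.5 on the log2 scale. When tested for a change beyond 0.25 on that scale, the calls of Smc1a and Smc3 unstimulated and of all 3 at LPS 3 h were lost. A threshold of 0.01 also ended the Smc3 call at LPS 3 h.

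Esco1 and Esco2, paralogs that acetylate the same ring, were at opposite ends of the set. Esco2 is on chromosome 14 (65819038 to 65833994, minus strand, ENSMUSG00000022034.9) and had the lowest level of the 10, 29.6 mean normalized counts per kb. The authors' deposited table gives it a log2 fold change of -2.27 (adjusted p = 4.31e-38, SE 0.17) unstimulated and -2.33 (adjusted p = 9.18e-08, SE 0.41) with LPS. It was left at 20.7% of control (16.4% to 26.1%) unstimulated and 19.9% (11.4% to 34.8%) at LPS 3 h, rank 36 and rank 16 from the lowest among the 12994 genes whose mean normalized count reached 10. Esco1, on chromosome 18 (10566507 to 10610352, minus strand, ENSMUSG00000024293.15), had a level of 168 per kb. Its log2 fold changes in the authors' deposited table were 0.01 (adjusted p = 0.908, SE 0.08) and 0.03 (adjusted p = 0.807, SE 0.07). The 95% interval of its level was 91.2% to 111.9% of control unstimulated and 92.1% to 112.5% at LPS 3 h, and a change within these bounds was not detectable at this precision. Esco2 minus Esco1, the difference of their log2 fold changes, was -2.29 (95% interval -2.66 to -1.92) unstimulated and -2.36 (-3.17 to -1.54) at LPS 3 h. These intervals take the errors of the 2 genes as independent, though both were measured in the same libraries.

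The Esco2 value at LPS 3 h is the least precise of the set. Its SE was 2.40 times that in unstimulated cells, while over the 452 genes within 1.2-fold of its mean normalized count the median ratio was 1.12. Their median SE was 0.19 at LPS 3 h, against 0.41 for Esco2. Among the other 9 genes the SE ratio ranged from 0.939 for Rad21 to 1.29 for Ncapd2.

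Condensin genes had lower fold changes than cohesin ring genes in both states, with Smc4 the closest to them. Ncapg, on chromosome 5 (45669919 to 45700546, plus strand, ENSMUSG00000015880.13), encodes a HEAT-repeat subunit of condensin I. It fell to 24.2% of control (20.6% to 28.3%) unstimulated and to 38.9% (31.8% to 47.6%) at LPS 3 h, with -2.05 (adjusted p = 5.4e-66, SE 0.12) and -1.36 (adjusted p = 7.99e-19, SE 0.15) in the authors' deposited table. Its end overlaps Lcorl on the opposite strand over 3366 bases (45697181 to 45700546), and whether counting used strand is not given in the sources used here. Lcorl had in the authors' deposited table -0.19 (SE 0.07) and 0.16 (SE 0.08), and whether its reads entered the Ncapg count was not tested. Ncapd2, the other HEAT-repeat subunit, is on chromosome 6 (125168007 to 125191701, minus strand, ENSMUSG00000038252.13), with the gene Mrpl51 starting 100 bases away on the opposite strand. It stood at -1.60 (adjusted p = 8.39e-99, SE 0.07) and -1.14 (adjusted p = 1.88e-30, SE 0.10) in the authors' deposited table, or 32.9% and 45.3% of control. The kleisin gene Ncaph, on chromosome 2 (127103809 to 127133954, minus strand, ENSMUSG00000034906.15), stood at -1.20 (adjusted p = 2.78e-43, SE 0.08) and -0.96 (adjusted p = 7.39e-19, SE 0.10) in the authors' deposited table, or 43.6% and 51.3% of control. All 3 genes specific to condensin I were therefore near or below the level that a fold change of -1 on the log2 scale gives, in both states.

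Smc2 and Smc4 encode the 2 ATPases of the same heterodimer, shared by condensin I and II, yet their transcripts fell unequally. Smc2 is on chromosome 4 (52439243 to 52488260, plus strand, ENSMUSG00000028312.19) and Smc4 on chromosome 3 (69004738 to 69034623, plus strand, ENSMUSG00000034349.14), where it hosts Mir15b and Mir16-2. In the authors' deposited table Smc2 had -1.34 (adjusted p = 2.64e-48, SE 0.09) without and -0.94 (adjusted p = 9.39e-25, SE 0.09) with LPS. Smc4 had -0.54 (adjusted p = 3.69e-24, SE 0.05) and -0.25 (adjusted p = 5.95e-06, SE 0.05) in the authors' deposited table. Smc2 was thus at 39.5% and 52.2% of control, and Smc4 at 68.6% and 84.0%. Smc4 minus Smc2, a pair chosen after the values were seen, differed by 0.80 (0.59 to 1.001) unstimulated and by 0.69 (0.49 to 0.89) at LPS 3 h. The level of Smc4 was 436 mean normalized counts per kb and that of Smc2 was 158, while Ncaph had 142, Ncapd2 113 and Ncapg 60.8. The Smc4 call at LPS 3 h was lost in the test for a change beyond 0.25.

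**Figure D2:**
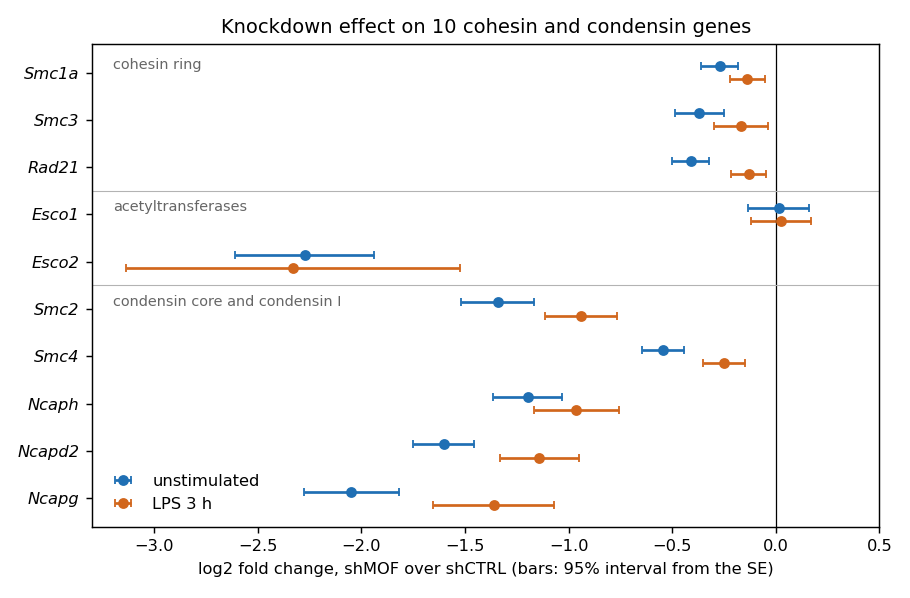
Log2 fold change of shMOF over shCTRL for each of the 10 genes, in unstimulated cells (blue) and at LPS 3 h (orange), with 95% intervals from the deposited SE. Esco2 lies at -2.27 and -2.33, the condensin genes between -2.05 and -0.25, the cohesin ring genes between -0.41 and -0.13, and both Esco1 intervals cover 0.

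Set against their counterparts, condensin genes fell further than the cohesin gene of like role in most pairs. Across the 7 pairs compared, that of Esco2 and Esco1 included, intervals are given without p-values. Between the SMC subunits, Smc2 minus Smc1a was -1.07 (-1.27 to -0.87) unstimulated and -0.80 (-0.99 to -0.61) at LPS 3 h. Smc4 minus Smc3 was much smaller, -0.18 (-0.33 to -0.02) and -0.08 (-0.25 to 0.08), so that at LPS 3 h the interval covered 0. Between the kleisins, Ncaph minus Rad21 was -0.79 (-0.98 to -0.60) and -0.83 (-1.05 to -0.61).

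Genes of condensin II, which is nuclear throughout the cell cycle, also fell, and less than their condensin I counterparts except where the interval of Ncapd2 minus Ncapd3 covers 0 at LPS 3 h. Of the 3 subunit genes and Mcph1, whose product microcephalin restrains condensin II, 4 of 4 fell in each state, with medians of -0.65 and -0.46. Among all genes tested 17.8% were called lower unstimulated and 20.0% at LPS 3 h. The authors' deposited table has Ncapg2 at -0.94 (SE 0.09) and -0.39 (SE 0.09), and Ncapd3 at -0.76 (SE 0.08) and -0.89 (SE 0.11). Ncaph2 stood in the authors' deposited table at -0.27 (SE 0.05) and -0.15 (SE 0.05), and Mcph1 at -0.55 (SE 0.10) and -0.52 (SE 0.11). In the test for a change beyond 0.25, Ncaph2 lost its call in both states and Ncapg2 at LPS 3 h (adjusted p = 0.213). Mcph1 at LPS 3 h was close to the threshold in that test (adjusted p = 0.0488). Ncapg minus Ncapg2 was -1.11 (-1.40 to -0.82) unstimulated and -0.97 (-1.31 to -0.63) at LPS 3 h. Ncaph minus Ncaph2 was -0.93 (-1.12 to -0.74) and -0.81 (-1.04 to -0.59). Ncapd2 minus Ncapd3 was -0.84 (-1.06 to -0.63) unstimulated and -0.25 (-0.54 to 0.03) at LPS 3 h. The interval of the last pair at LPS 3 h covered 0, but did not (-0.4975 to -0.0033) when the errors were given a correlation of 0.25, so that difference is unsettled.

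**Figure D3:**
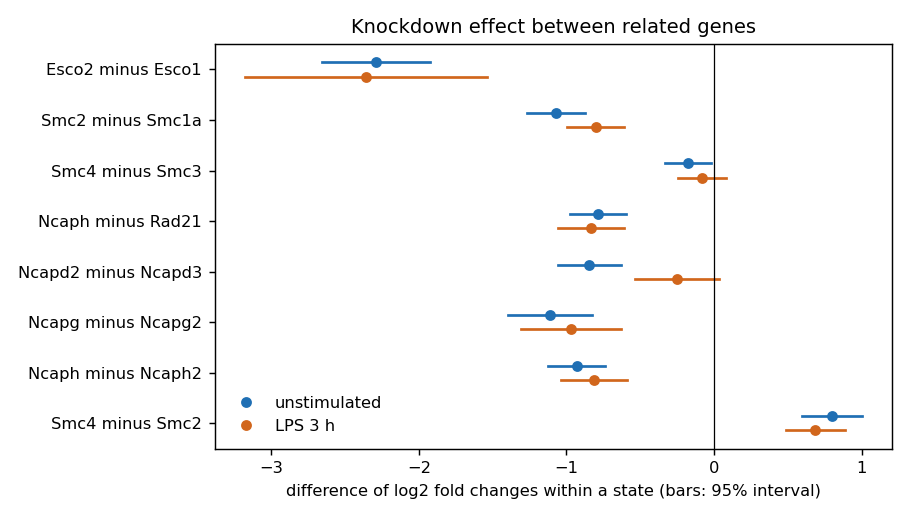
Difference of log2 fold changes between related genes within a state, as the first gene minus the second, for unstimulated cells (blue) and LPS 3 h (orange), with 95% intervals. Esco2 minus Esco1 lies lowest at -2.29 and -2.36, while Smc4 minus Smc3 and, at LPS 3 h, Ncapd2 minus Ncapd3 lie closest to 0.

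Among the other genes of cohesin, those of the STAG subunits, loading and WAPL had no call in unstimulated cells, while Cdca5, Espl1, the shugoshin genes and both PDS5 genes fell. The STAG subunits, which dock on RAD21, were not called unstimulated: Stag1 had -0.13 (adjusted p = 0.0716, SE 0.06) and Stag2 0.03 (adjusted p = 0.591, SE 0.04) in the authors' deposited table. Centring on the median of all genes brought Stag1 to -0.16 with an adjusted p = 0.0221. The loader genes Nipbl (0.04, SE 0.07) and Mau2 (0.10, SE 0.06) and the release factor gene Wapl (-0.00, SE 0.05) had no call in unstimulated cells in the authors' deposited table. Neither had Hdac8, the deacetylase that recycles SMC3, with 0.17 (SE 0.11) in the authors' deposited table. Cdca5, which encodes sororin, the protector of acetylated cohesin, had in the authors' deposited table -1.67 (SE 0.12) without and -1.83 (SE 0.20) with LPS. Shugoshin genes, which guard centromeric cohesin, are listed as Sgol1 and Sgol2a. The authors' deposited table has them at -2.35 (SE 0.16) and -2.11 (SE 0.14) unstimulated, and at -1.30 (SE 0.25) and -1.34 (SE 0.19) with LPS. Espl1, the separase gene, stood in the authors' deposited table at -1.30 (SE 0.11) and -1.17 (SE 0.15). Its inhibitor securin is encoded by Pttg1, which the authors' deposited table has at 0.18 (adjusted p = 0.144, SE 0.10) unstimulated and which rose by 0.38 (adjusted p = 4.37e-05, SE 0.09) with LPS. The PDS5 genes, whose products bind RAD21 and serve both release and cohesion, were unlike each other, Pds5b at -0.96 (SE 0.08) and Pds5a at -0.21 (SE 0.05) unstimulated in the authors' deposited table. The Pds5a call was lost in the test for a change beyond 0.25. Of these 11 regulators 6 fell and 0 rose unstimulated, and 4 fell and 3 rose at LPS 3 h. Beside the shares of all genes tested (17.8% lower and 21.3% higher unstimulated, 20.0% and 28.1% at LPS 3 h), the share that rose at LPS 3 h is near the background.

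The SMC5/6 complex, the third SMC ring, which acts in DNA repair, had lower levels of both SMC subunits and, slightly, of Nsmce4a in unstimulated knockdown cells. Smc6 had -0.62 (adjusted p = 7.9e-19, SE 0.07) and Smc5 -0.45 (adjusted p = 1.95e-11, SE 0.06) unstimulated in the authors' deposited table. Of 6 genes 3 fell and 1 rose unstimulated, where 17.8% of all genes tested were called lower and 21.3% higher. At LPS 3 h 1 fell and 0 rose, a share near the 20.0% of all genes that fell there. The Nsmce4a call (adjusted p = 0.0356 in the authors' deposited table) was lost at a threshold of 0.01 and in the test beyond 0.25. So was that of Smc5 at LPS 3 h (adjusted p = 0.0359 by the authors' deposited table). Nsmce1 and Nsmce2 had no call in either state. The rise, in the NSE3 gene listed as Ndnl2, was slight in the authors' deposited table at 0.18 (adjusted p = 0.0444, SE 0.08) and was lost on centring (adjusted p = 0.106). Smchd1, a diverged SMC gene of chromosome silencing, fell in the authors' deposited table in both states, with -0.55 (SE 0.05) and -0.20 (SE 0.05). The Smchd1 call at LPS 3 h was lost in the test beyond 0.25. Ctcf, whose product stops cohesin on DNA, had -0.09 (adjusted p = 0.0893, SE 0.05) and 0.14 (adjusted p = 0.00788, SE 0.05) in the authors' deposited table. After centring, Ctcf was also called lower unstimulated, at -0.13 with an adjusted p = 0.0195. Of 4 genes of meiotic cohesin 1, Stag3, was measured, with no call in either state. Over all 26 other pathway genes measured, 14 fell and 1 rose unstimulated, and 10 fell and 5 rose at LPS 3 h. At LPS 3 h 20.0% of all genes tested were called lower and 28.1% higher, so the share of the 26 that rose did not exceed the background. The medians of the 26 genes were -0.24 and -0.07.

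At LPS 3 h the same 9 of the 10 genes were lower in knockdown cells, and most of the falls were smaller. Among all 13987 genes tested at LPS 3 h 48.0% were called, 20.0% lower and 28.1% higher. The median over the 10 genes was -0.60, against 0.03 over all genes. Proliferation genes again fell in 20 of 22 cases, with a median of -1.34. Mki67 rose, at 0.83 (adjusted p = 1.62e-35, SE 0.07) by the authors' deposited table, and Pcna had no call. Beside them the pathway genes that rose were Stag2 at 0.32 (adjusted p = 3.65e-14, SE 0.04), Wapl at 0.27 (adjusted p = 2.12e-09, SE 0.04) and Nipbl at 0.16 (adjusted p = 0.0198, SE 0.06) in the authors' deposited table, together with Pttg1 and Ctcf. The Nipbl call was lost on centring (adjusted p = 0.0629) and at a threshold of 0.01. In the test for a change beyond 0.25 all 5 rises were lost, with adjusted p = 0.179 for Stag2, 0.261 for Pttg1, 0.756 for Wapl and 1 for Nipbl and Ctcf.

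**Figure D4:**
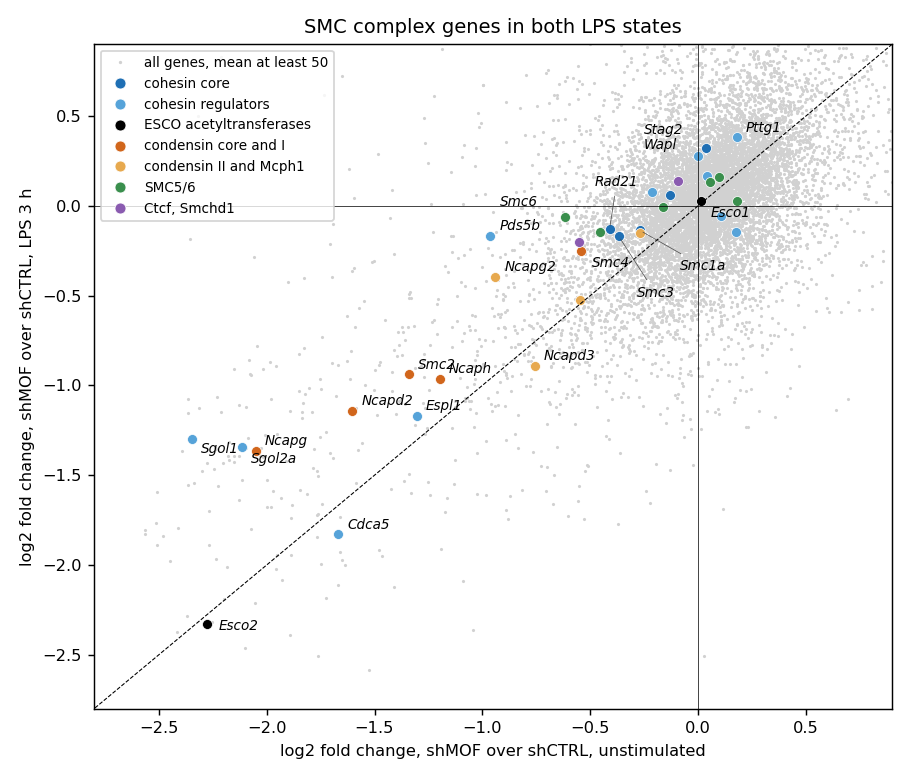
Log2 fold change of shMOF over shCTRL in unstimulated cells (x) and at LPS 3 h (y) for the genes of the SMC complexes, coloured by role, over all genes whose mean normalized count reached 50 (grey; genes outside the axes are not drawn). The dashed line marks equal effects; 9 of the 10 genes lie above it and Esco2, at -2.27 and -2.33, just below.

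The knockdown effect itself was compared between LPS 3 h and unstimulated cells, as the difference of the 2 log2 fold changes, where a value above 0 means a smaller fall or a larger rise at LPS 3 h. It was above 0 for 9 of the 10 genes and past the threshold for 5, with 0 called below 0. Of the 12994 genes tested 30.6% were called, 18.2% above 0 and 12.4% below. The median difference was 0.26 over the 10 genes and 0.01 over all genes tested. Ncapg had the largest difference of the 10, 0.69 (adjusted p = 0.00178, SE 0.19), followed by Ncapd2 with 0.46 (adjusted p = 0.00107, SE 0.12). Smc2 differed by 0.40 (adjusted p = 0.00696, SE 0.13), Smc4 by 0.29 (adjusted p = 4.88e-04, SE 0.07) and Rad21 by 0.28 (adjusted p = 9.18e-05, SE 0.06). These 5 thus fell less at LPS 3 h. Ncaph, with 0.23 (adjusted p = 0.186, SE 0.13), did not pass, and its interval of -0.03 to 0.50 holds the Ncapd2, Smc2, Smc4 and Rad21 values.

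Smc3 and Smc1a lay close to the threshold, with differences of 0.20 (adjusted p = 0.0764, SE 0.09) and 0.13 (adjusted p = 0.0943, SE 0.06). Both passed when the errors of the 2 states were given a correlation of 0.25, at adjusted p = 0.0301 and 0.0400, so the count of 5 became 7. A positive correlation can only lower the SE of a difference, and a negative one was not tried. The difference for Esco1 was 0.01 (-0.19 to 0.22). For Esco2 it was -0.06, with an interval of -0.93 to 0.82 that covers every difference seen in the other 9 genes. A change of the Esco2 effect with LPS was therefore not detectable at this precision. Proliferation genes also had differences above 0, past the threshold in 17 of 22 cases with a median of 0.65, and the part of these genes in the result was not tested.

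Outside the 10 genes, 11 of the 26 other pathway genes were called above 0 and 0 below, with a median of 0.20. Of all 12994 genes tested 18.2% were called above 0 and 12.4% below, with a median of 0.01. Pds5b fell in unstimulated cells and had no call with LPS, where the authors' deposited table gives -0.17 (adjusted p = 0.0663, SE 0.08). Its difference was 0.80 (adjusted p = 2.18e-11, SE 0.11). After centring, Pds5b was called lower at LPS 3 h as well, with an adjusted p = 0.0278. Smc6 likewise went from a fall to -0.06 (adjusted p = 0.446, SE 0.06 in the authors' deposited table), with a difference of 0.56 (adjusted p = 3.01e-08, SE 0.09). Within condensin II the difference was 0.55 (SE 0.12) for Ncapg2 and -0.13 (adjusted p = 0.495, SE 0.13) for Ncapd3. For the cohesion genes Cdca5 and Espl1 it was -0.16 (adjusted p = 0.656, SE 0.23) and 0.13 (adjusted p = 0.629, SE 0.18).

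**Figure D5:**
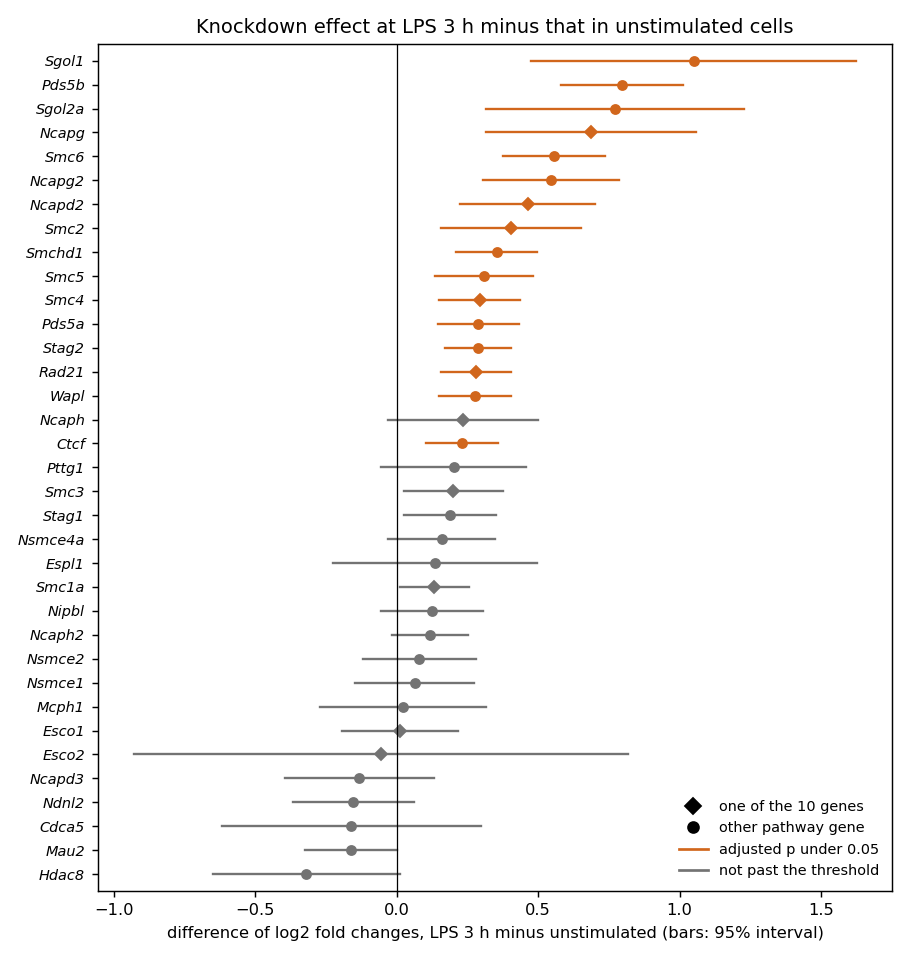
Difference of the knockdown effect, LPS 3 h minus unstimulated, on the log2 scale with 95% intervals, for the 10 genes (diamonds) and the other pathway genes without the meiotic one (circles). Orange marks an adjusted p under 0.05, which 5 of the 10 genes reached, all above 0; the widest interval among the 10 is that of Esco2, -0.93 to 0.82.

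Genes with the most similar pair of fold changes were sought for each of the 10, by straight-line distance in the plane of the 2 log2 fold changes, over genes whose mean normalized count reached 50. The measure rests on 2 comparisons only and takes no account of the SE. Esco2 lay nearest to Kat8, the targeted gene, at a distance of 0.03, followed by the mitotic kinesin genes Kif18b at 0.10 and Kif14 at 0.15. These distances are smaller than the SE of Esco2 itself, 0.17 unstimulated and 0.41 at LPS 3 h, so their order is not resolved. Ncapg lay nearest to Dlgap5, Troap and the cyclin gene Ccnb2, at distances of 0.03, 0.03 and 0.04. Ncapd2 had Nrg1 at 0.02, with an SE of 0.85 unstimulated that leaves its place uncertain, then the kinetochore gene Cenpk at 0.11 and Slc43a3 at 0.12. Smc2 had 2700099C18Rik, Ap1s3 and Trim59, at 0.05, 0.06 and 0.07, and Ncaph had Trim59, the helicase gene Recql4 and Prdx6, at 0.07, 0.08 and 0.09. Smc4 lay nearest to the tubulin gene Tubb5, then to Slf1 and Rdh13, each at 0.01. Around the cohesin ring genes the plane is crowded, with the 3 nearest genes at 0.02 or less after rounding. They were Dpy30, Txlng and Mrpl12 for Smc1a, Akap9, Prss46 and Mib1 for Smc3, and Plp2, Fcho1 and Npat for Rad21. Esco1, near the middle of all genes, had Pigm, Parp1 and Ankrd52 within 0.01.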

How the data were processed

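RNA of 12 libraries, 3 per group, was sequenced with a stranded mRNA kit, per the labels' protocols. DESeq2, with no version, and mm10 are named in the submitters' processing notes, while the aligner, counter and annotation release is not given in the sources used here. Per the file headers, the authors deposited for each LPS state a mean normalized count (a signal, identical in both tables), a log2 fold change with SE, a Wald score and p-values with an adjusted p. The Wald score equalled fold change over SE to within 1.53e-13. The authors' adjusted p was used as it stands, with a threshold of 0.05. For LPS 3 h 277 genes have none.

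Each difference between states was divided by its SE, the root of the 2 squared SE added up. Two-sided p-values came from the normal distribution and were adjusted by Benjamini-Hochberg over the 12994 genes whose mean reached 10. This takes the errors as uncorrelated. The code was tested on simulated data. Differences between genes have 95% normal intervals and no p. Levels per kb use the longest GENCODE M21 principal transcript. Promoters are from RefSeq, and the last 25 bases of all 6 were found in a GENCODE transcript of the gene. Python 3.11.15, pandas 2.3.3 and scipy 1.17.1 were used. The 10 genes, the lists and the tests were chosen with earlier results of these data known. The rule for names took all 10 genes, the 3 genes nearest to each and Kat8, and allowed any measured pathway gene and up to 3 of each marker list, those with the largest mean count. Lcorl, Mrpl51 and others named outside this rule were chosen after their values were seen. Alternatives were centring, other sets for adjustment, a stricter threshold (0.01), a required log2 change of 1, a test for a change beyond 0.25, an error correlation of 0.25 and a shorter promoter window.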

Additional observations from a re-analysis of the deposited data

Results flagged for a closer look

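The following genes were singled out because their knockdown effect differed between LPS 3 h and unstimulated cells by the test of the difference itself, at an adjusted p under 0.05. The values are differences of log2 fold changes, LPS 3 h minus unstimulated, and 16 of the 36 pathway genes tested are among them. All 16 lie above 0. Of the 12994 genes tested 30.6% were called, 18.2% above 0 and 12.4% below. Among condensin genes the differences were 0.69 for Ncapg, 0.46 for Ncapd2, 0.40 for Smc2, 0.29 for Smc4 and, in condensin II, 0.55 for Ncapg2. In the cohesin ring and its STAG subunit they were 0.28 for Rad21 and 0.29 for Stag2. Among cohesin regulators the values were 0.28 for Wapl, 0.29 for Pds5a, 0.80 for Pds5b, 1.05 for Sgol1 and 0.77 for Sgol2a. The SMC5/6 genes Smc5 and Smc6 had 0.31 and 0.56. Ctcf had 0.23 and Smchd1 had 0.35.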

How the results depend on the processing

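The count of 9 lower genes stayed at 9 in both states on centring, on adjustment over every gene and over genes whose mean reached 50, and at a threshold of 0.01 it was 9 unstimulated and 8 at LPS 3 h. With a minimum log2 change of 1 it was 5 unstimulated and 3 at LPS 3 h, since the cohesin ring genes and Smc4 changed by less, and also Smc2 and Ncaph at LPS 3 h. In the test for a change beyond 0.25 it was 7 unstimulated and 5 at LPS 3 h. An error correlation of 0.25 took the interval of the Ncapd2 minus Ncapd3 difference of -0.25 at LPS 3 h off 0. A positive correlation can only narrow such intervals, and a negative one was not tried. E2F-type letters were in 4 of 6 promoters over 300 bases, against 9.57% of all promoters. Over the 200 bases upstream they were in 1 of 6, against 6.79%. CHR letters were there in 3 of 6 and CCAAT in 4 of 6, against 12.5% and 29.3% of all promoters. No called value of a single gene turned its direction on centring, which shifts each knockdown fold change by only 0.03 on the log2 scale. The other alternatives leave the sign of every value as it is, so they could not test this. The difference between states was called for 5 of the 10 genes under each other set of genes for adjustment, on centring and at a threshold of 0.01, and for 7 with an error correlation of 0.25. No paired analysis was possible because the tables hold no values per library, and for the same reason no replicate could be left out. Depth per library is unknown, and how it limits each gene was not tested.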

Other observations

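CHR letters close to the start were seen in other genes of the pathway, a pattern noticed in the data and described here without a test. Within the 40 bases upstream of a RefSeq start, TTTGAA on either strand was found for Ncapg, Cdca5, Espl1, Ncapg2 and Pds5b. All 5 fell in unstimulated cells, and at LPS 3 h all but Pds5b, which had no call. Sgol1 and Sgol2a, which fell further than these unstimulated (-2.35 and -2.11 in the authors' deposited table), have no CHR letters in their promoters. Of 9349 genes with a promoter in the table and a mean normalized count of at least 10, 140 had such letters there. Of these 140 genes 56 (40%) were called lower unstimulated and 47 (33.6%) at LPS 3 h, against 21.0% and 22.7% of the 9349. By comparison, 25.2% of the 1347 genes with the letters anywhere in the 300 bases were called lower unstimulated, and 20.3% of the 8002 without them. The median log2 fold change of the 140 genes was -0.12 unstimulated and -0.09 at LPS 3 h. Smc2 and Ncapd2 are not among the 140. The CHR letters of Ncapd2 lie farther upstream, at -123 to -118 from the RefSeq start. Those of Smc2 lie farther upstream at -145 to -140, and past the start at 27 to 32, where this window did not reach. This split depends on the start used. The GENCODE start of Ncapd2 (125191701) lies upstream of the RefSeq start, and its CHR letters stand just before it. Those of Cdca5, Espl1, Ncapg2 and Pds5b lie inside the gene by GENCODE, and those of Ncapg lie upstream of it.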
